A study of Mus musculus with 12 samples.

Results

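To ask how the RNA of TNF-exposed glomeruli differs with the loss of TNF receptor 2 once TNF receptor 1 is gone, Tnfr1,2-/- glomeruli were compared with Tnfr1-/- glomeruli. The members of this comparison are 6 of the 12 arrays in the series, 3 of each genotype, assigned to the groups by their genotype labels. Tnfr1-/- mice carry the germline tm1Mak deletion of Tnfrsf1a, the gene of TNF receptor 1, and Tnfr1,2-/- mice carry in addition the tm1Mwm deletion of Tnfrsf1b, the gene of TNF receptor 2. Both mutant lines are B6.129 strains. According to the methods, the double mutants and also the wildtype controls, named as C57BL/6J, came from crosses of the single mutants. Because the deletions are germline, every cell type of the glomerulus lacks the receptor. Glomeruli were isolated with magnetic beads from male mice 6 to 8 weeks old. Cultures of 5000 glomeruli were starved of serum and given mouse TNF at 50 ng/ml, with RNA taken after 12 hours, and all groups share this exposure. Arrays of glomeruli without TNF were not analysed here, so each difference is one between TNF-exposed genotypes and not a response to TNF. The methods describe the 3 preparations of a genotype as independent, and neither they nor the labels say whether these came from separate mice, so p-values measure the spread between preparations.

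TNF is a cytokine that binds a pair of cell surface receptors. TNF receptor 1 is found on most cells and carries a death domain through which it recruits TRADD, TRAF2 and RIPK1, activates NF-kB and MAP kinases and induces chemokines and adhesion molecules. TNF receptor 2 has no death domain, binds TRAF2 directly, responds most strongly to membrane-bound TNF, and can also feed the alternative NF-kB route through NIK and RelB. In the glomerulus, a capillary tuft of endothelial cells, mesangial cells and podocytes, TNF promotes the recruitment of leukocytes.

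The arrays gave log2 values normalized together by the robust multichip average (RMA), so that a difference of 1 is a 2-fold difference in signal. For each of 18194 genes 1 probe set was used. A called gene is one whose limma p, adjusted over all genes, was under 0.05 and whose mean change was 1.5-fold or more. The 6 arrays were not alike in technical quality. The difference between the 3′ and 5′ probe sets of beta-actin, which grows when RNA is degraded or incompletely labelled, was 0.86, 1.821 and 2.297 in Tnfr1,2-/- replicates 1 to 3 and 0.985, 0.921 and 1.945 in Tnfr1-/- replicates 1 to 3. Tnfr1,2-/- replicates 2 and 3 and Tnfr1-/- replicate 3 therefore belonged to array set 2, with high values, and the other 3 arrays to array set 1. For added poly-A control RNA the difference was 1.815, 2.821 and 3.831 in Tnfr1,2-/- replicates 1 to 3. In Tnfr1-/- replicates 1 to 3 it was 1.935, 2.324 and 2.732. The cause of the difference between the sets was not tested. Tnfr1-/- replicate 2 stood apart in its podocyte markers. The mean log2 level of 12 podocyte markers was 9.46 on that array, against 11.02 and 10.82 on the other Tnfr1-/- arrays and 10.81 to 11.12 on the Tnfr1,2-/- arrays. Over all genes this array was not the most distant one. Its root mean square log2 difference from the other arrays of its genotype was 0.455. That difference was 0.558 and 0.512 for Tnfr1,2-/- replicates 1 and 3 and 0.51 for Tnfr1-/- replicate 3. Larger shifts that leaving out Tnfr1-/- replicate 2 made are given beside the values concerned. Shifts made by leaving out other arrays are mostly not given there.

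Rab6b was the only gene called of 18194, and it was lower in Tnfr1,2-/- glomeruli (called lower, 1 gene or 0.0055%; called higher, 0 genes). At an unadjusted p under 0.05, 202 genes were lower and 270 higher, together 472 genes or 2.59% of those tested. That number was 151 without Tnfr1-/- replicate 2 and 281 without Tnfr1,2-/- replicate 3, but 1848 without Tnfr1-/- replicate 3 and 2270 without Tnfr1,2-/- replicate 1. SAM, the permutation method named in the study's methods, called 4 genes at a q under 5%, Rab6b (lower) and Angptl7, Zfp991 and Amer2 (higher). Between the same 6 arrays, 15146 genes (83.2%) had a 95% confidence interval that lay within a 2-fold difference in either direction, and for the remaining genes a difference of that size was not excluded by these 6 arrays. With 3 arrays on each side, the smallest p of an exact two-sided permutation test is 0.1, so no gene was tested in that way.

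The deleted receptor gene was measured first. Tnfrsf1b had log2 levels of 5.51, 5.37 and 5.57 on the 3 Tnfr1,2-/- arrays and of 7.32, 8.36 and 6.76 on the 3 Tnfr1-/- arrays. The groups did not overlap, and the Tnfr1-/- arrays spread over more than 1 log2 unit while the Tnfr1,2-/- arrays lay close together. The log2 change of Tnfrsf1b was -2.0 (95% confidence interval -2.72 to -1.28, a 3.99-fold difference), which did not pass the adjustment over all genes (adjusted p = 0.268). Without Tnfr1-/- replicate 2 the change was -1.56. A second Tnfrsf1b probe set showed no such difference, with levels of 6.05, 6.21 and 6.4 in Tnfr1,2-/- and 6.31, 6.58 and 6.01 in Tnfr1-/- glomeruli and a log2 change of -0.08. Tnfrsf1a, whose gene is targeted in both genotypes, was still measured at log2 levels of 9.61, 9.14 and 9.11 in Tnfr1,2-/- and 9.8, 10.18 and 9.24 in Tnfr1-/- glomeruli. The groups overlapped, and the log2 change was -0.45 (95% confidence interval -0.97 to 0.07), or -0.24 without Tnfr1-/- replicate 2. Wildtype glomeruli gave 10.7, 10.73 and 10.23 for Tnfrsf1a. Where the probes of Tnfrsf1a, Tnfrsf1b and the genes flanking Tnfrsf1b lie relative to a deleted part or to differences between mouse strains was not examined.

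Rab6b encodes a small GTPase of the Golgi apparatus, a relative of the broadly expressed Rab6a. Its log2 level was 7.76, 7.84 and 7.99 in Tnfr1,2-/- and 9.82, 10.28 and 9.77 in Tnfr1-/- glomeruli, so that each genotype was tight and the gap between them was wide. The decrease in Rab6b, a log2 change of -2.09 with a standard error of 0.178, was 4.26-fold (adjusted p = 0.00211). It was called without each of the 12 arrays in turn, with log2 changes between -2.19 and -1.93. In array set 1 alone the change was -2.29 and in array set 2 alone -1.85. Its 4 probe sets gave log2 changes of -2.09, -1.87, -1.75 and -1.35, and where their mean was used in place of 1 probe set, the change was -1.76 and the adjusted p 0.066. The call was also lost where the 6 arrays were fitted without the other genotypes (adjusted p = 0.1). Rab6a, at levels of 11.46, 11.69 and 11.88 against 11.37, 10.96 and 11.68, had a log2 change of 0.34, or 0.15 without Tnfr1-/- replicate 2, with overlapping arrays. Of 42 measured Rab GTPase genes, which direct vesicle traffic between membranes, none but Rab6b was called, and their median log2 change was 0.01 beside 0.00 over all genes.

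**Figure D1:**
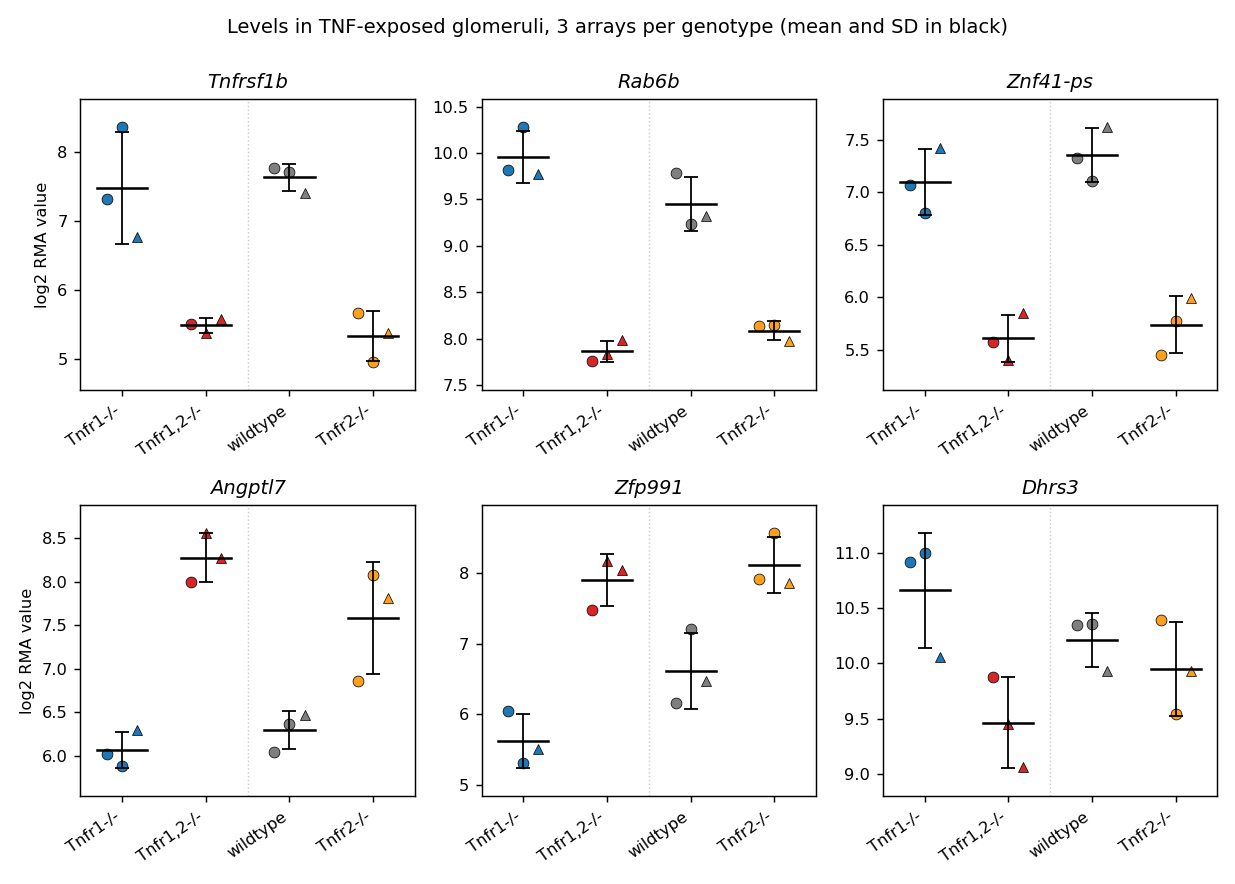
Log2 RMA values (y axis) of 6 genes on each array of the 4 genotypes (x axis). Set 1 arrays are drawn as circles and those of set 2 as triangles, with the mean and SD of 3 arrays in black. For Tnfrsf1b, Rab6b and Znf41-ps the Tnfr1,2-/- and Tnfr2-/- arrays lie below the Tnfr1-/- and wildtype arrays, and for Angptl7 and Zfp991 above them, whereas for Dhrs3 the Tnfr2-/- and wildtype arrays overlap.

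The genes with the smallest p were then listed with their position relative to Tnfrsf1b. By rule, the 8 lower and the 8 higher genes were taken that had the smallest unadjusted p among genes with at least a 1.5-fold change, arrays that did not overlap and a mean log2 level of at least 6 in the higher genotype. Arrays did not overlap for 390 genes lower (2.14%) and 447 genes higher (2.46%) in Tnfr1,2-/- glomeruli. Of these 16 genes, 5 lie within 10 Mb of the Tnfrsf1b locus in the GRCm38.p6 annotation, namely Tnfrsf1b itself, Znf41-ps, Dhrs3, Angptl7 and Zfp991. That window holds 239 of the 18033 genes with a known position. Over the other 238 genes of the window the median log2 change was -0.05. At an unadjusted p under 0.05, 6 of them were lower and 4 higher (beside 1.11% lower and 1.48% higher of all genes).

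Angptl7 encodes a secreted angiopoietin-like protein. Its log2 level was 8.0, 8.56 and 8.27 in Tnfr1,2-/- and 6.02, 5.89 and 6.3 in Tnfr1-/- glomeruli, so every Tnfr1,2-/- array lay above every Tnfr1-/- array. The log2 change was 2.20 (95% confidence interval 1.59 to 2.82, adjusted p = 0.0616), and it passed with the array set as a block (2.09, adjusted p = 0.0116). Zfp991, a zinc finger gene, had levels of 7.48, 8.17 and 8.04 against 6.05, 5.31 and 5.51 and a log2 change of 2.28 (95% confidence interval 1.60 to 2.95, adjusted p = 0.0746, or 0.0342 with the array set as a block). Its probe sets disagreed, since a second one had a log2 change of -1.44 and the third one of -0.01, so its direction depends on the probe set. Znf41-ps, a zinc finger pseudogene, had levels of 5.57, 5.4 and 5.85 against 7.07, 6.8 and 7.42. All Tnfr1,2-/- arrays lay below all Tnfr1-/- arrays, with a log2 change of -1.49 (95% confidence interval -1.95 to -1.03, adjusted p = 0.0819, or 0.00449 with the array set as a block). Dhrs3, which encodes a retinaldehyde reductase, had levels of 9.88, 9.45 and 9.06 against 10.92, 11 and 10.06 and a log2 change of -1.20 (adjusted p = 0.919). Its groups were separated by a small gap only, and the array set 2 value was lowest within each genotype. Zfp979, a dim zinc finger gene of the same window, had a log2 change of -1.39, at levels between 2.85 and 5.02.

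Of the 16 genes, 11 lie elsewhere in the genome, Rab6b among them, and the other ones did not pass the adjustment (adjusted p = 0.919 in limma for each). On the lower side were Rftn1, a lipid raft protein, with a log2 change of -0.66, S1pr3, a receptor for sphingosine 1-phosphate, with -0.79, Ccrl2, which binds chemerin, with -0.68, and the prostaglandin transporter Slco2a1, with -0.82. Slco2a1 lies within 1 Mb of Rab6b, and the median log2 change of the 17 genes other than Rab6b in that window was -0.01. S1pr3 had levels of 11.22, 11.21 and 10.82 in Tnfr1,2-/- and 11.42, 12.36 and 11.85 in Tnfr1-/- glomeruli, with Tnfr1-/- replicate 2 the highest. The same array was the highest of the 6 for Rftn1, Ccrl2 and Slco2a1 too, and without it their log2 changes were -0.56, -0.46 and -0.59, and that of S1pr3 was -0.55. On the higher side were Nexmif with a log2 change of 1.35, the gap junction gene Gja3 with 1.08, Dipk2a with 0.97, Wdr76 with 0.70, the secreted glycoprotein gene Nell2 with 0.63 and the AKT-binding protein gene Mtcp1 with 0.61. With a gene's probe sets averaged, these changes were 0.45, 0.76, 0.58, 0.48, 0.29 and 0.17 in the same order. Another Nell2 probe set had a log2 change of -0.05. Tnfr1-/- replicate 2 was the lowest of the 6 arrays for Nexmif (4.71), Gja3 (5.18), Dipk2a (7.79) and Nell2 (5.65), and without it their log2 changes were 1.02, 0.68, 0.57 and 0.49. Amer2, which regulates WNT signalling, was called by SAM alone. Its levels of 5.06, 5.03 and 4.89 against 4.36, 4.34 and 4.35 were dim and very close within each genotype, and its log2 change was 0.64 (adjusted p = 0.919 in limma).

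The same loss of TNF receptor 2 was also measured where TNF receptor 1 was present, by comparing the 3 Tnfr2-/- with the 3 wildtype arrays. These arrays are shared with none of the 6 above. There, no gene was called by limma (called lower, 0%, and called higher, 0%), and 128 genes (0.704%) had an unadjusted p under 0.05. SAM was not run here on this pair of genotypes. The paper, which used SAM, reported 5 genes for it, all lower, with Tnfrsf1b and Rab6b among them. Also among the 5, under other gene names, were the probe set used here for Znf41-ps and the second Zfp991 probe set. With the replicate number as a block in the limma fit of all 12 arrays, 1 gene was called, Znf41-ps. Rab6b had log2 levels of 8.14, 8.15 and 7.97 in Tnfr2-/- and 9.78, 9.24 and 9.32 in wildtype glomeruli, a log2 change of -1.36. The log2 change there was -2.30 for Tnfrsf1b, -1.61 for Znf41-ps, 1.29 for Angptl7, 1.5 for Zfp991 and -0.81 for Zfp979. None of these was called in the fit of all 12 arrays without blocks or array weights. A block for the array set, or array weights, led to calls of Znf41-ps, Rab6b and Tnfrsf1b, and the fit called Rab6b and Tnfrsf1b without Tnfr1-/- replicate 2. For each of these 5 genes and Rab6b the arrays did not overlap, as for 2.62% of all genes in the lower and 2.32% in the higher direction, and the sign was that seen without TNF receptor 1. For Zfp991 this describes the brightest probe set. The second Zfp991 probe set went the other way in both comparisons, with log2 changes of -1.82 here and -1.44 without TNF receptor 1. Averaged over both comparisons, 3 genes were called lower (0.0165%) and 2 higher (0.011%), Rab6b, Tnfrsf1b, Znf41-ps, Angptl7 and Zfp991.

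The remaining genes were compared in the same way. Of the 5 genes near Tnfrsf1b among the 16, 5 had the same sign with and without TNF receptor 1, and of the 11 elsewhere 4 did, beside 46.9% of all genes. These 5 include Tnfrsf1b itself, which is deleted in both comparisons, so its shared sign was fixed beforehand. They also include Zfp991, whose sign depends on the probe set. Of the 472 genes with an unadjusted p under 0.05 in the absence of TNF receptor 1, 195 (41.3%) had the same sign in its presence. The correlation of log2 changes across genes, which are not independent replicates, was -0.059 over all 18194 genes. It was 0.546 over the 239 genes within 10 Mb of Tnfrsf1b, a set that holds the deleted Tnfrsf1b itself. S1pr3, Slco2a1 and Rftn1 had log2 changes of 0.12, 0.16 and 0.07 in Tnfr2-/- against wildtype glomeruli, and Nexmif and Gja3 of -0.25 and 0.00. The difference between the 2 comparisons was tested as an interaction for every gene. No gene was called (0% lower and 0% higher), and 245 genes (1.35%) had an unadjusted p under 0.05. For Rab6b the interaction was -0.73, a larger decrease without TNF receptor 1 than with it, which did not pass the adjustment (95% confidence interval -1.29 to -0.18, adjusted p = 0.998).

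**Figure D2:**
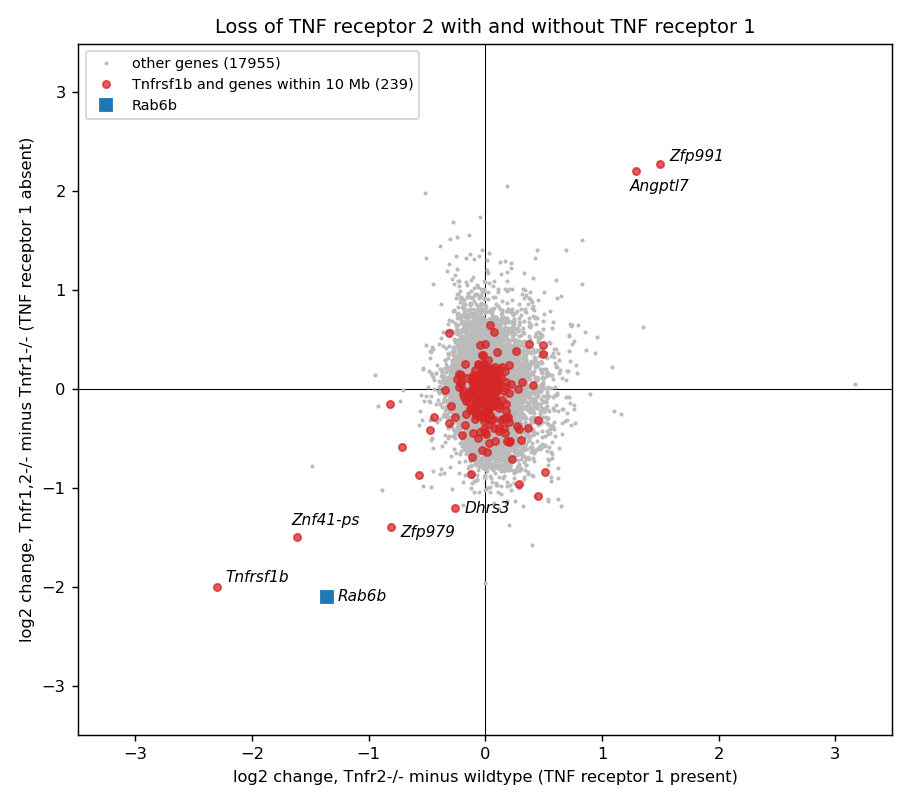
Each point is 1 of 18194 genes, with its log2 change in Tnfr2-/- minus wildtype glomeruli on the x axis and in Tnfr1,2-/- minus Tnfr1-/- glomeruli on the y axis; the comparisons share no array. Rab6b (blue square) and several genes within 10 Mb of Tnfrsf1b (red) lie far from the origin with the same sign on both axes, whereas the other genes (grey) form a cloud with a correlation near 0.

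For several inflammatory genes the Tnfr1,2-/- and Tnfr1-/- arrays overlapped at levels far below wildtype, among them Ccl2, Vcam1 and Cfb. Ccl2, which attracts monocytes, had log2 levels of 7.3, 6.67 and 6.63 in Tnfr1,2-/- and 6.78, 7.84 and 6.3 in Tnfr1-/- glomeruli, against 12.51, 12.75 and 12.35 in wildtype glomeruli. The Tnfr1,2-/- and Tnfr1-/- arrays overlapped and lay far below every wildtype array. The log2 change of Ccl2 between the 2 mutants was -0.11 (95% confidence interval -0.88 to 0.67), or 0.33 without Tnfr1-/- replicate 2. Set against the same wildtype arrays it was -5.67 in Tnfr1,2-/- and -5.56 in Tnfr1-/- glomeruli. The adhesion molecule gene Vcam1 had levels of 7.65, 6.89 and 8.5 against 6.95, 8.53 and 7.63, and a log2 change of -0.02 (95% confidence interval -0.93 to 0.88), or 0.39 without that array. Complement factor B, encoded by Cfb, had levels of 5.25, 5.62 and 5.43 against 5.18, 5.76 and 5.47, and a log2 change of -0.04 (95% confidence interval -0.76 to 0.68), or 0.10 without that array. Both genes lay around 12 (Vcam1, 12.12 to 12.38) or between 10.22 and 10.95 (Cfb) in wildtype glomeruli. For the acute phase gene Saa3 the log2 change was -0.11, for Il6 -0.10 and for Cxcl10, a ligand of CXCR3 on T cells, -0.32, or 0.19 without that array. All 3 had arrays that overlapped, and intervals that reached beyond 2-fold (for Saa3 -1.15 to 0.93, for Il6 -1.08 to 0.88, for Cxcl10 -1.08 to 0.44), so that a change of that size was not excluded for them.

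Some chemokine and adhesion genes had lower means in Tnfr1,2-/- than in Tnfr1-/- glomeruli but did not pass the adjustment (adjusted p = 0.919 for each). Ccl5, a chemokine that attracts T cells and monocytes, had levels of 6.08, 6.73 and 5.89 against 7.48, 7.75 and 6.31 and a log2 change of -0.94 (95% confidence interval -1.71 to -0.18). Cxcl1, which attracts neutrophils, had levels of 9.64, 10.1 and 9.77 against 10.14, 11.45 and 10.18 and a log2 change of -0.75. Cxcl16, a transmembrane chemokine, had levels of 8.05, 8.06 and 7.49 against 8.53, 9.24 and 8.19 and a log2 change of -0.79. Icam1, the ligand of leukocyte beta2 integrins, had levels of 7.53, 7.75 and 7.82 against 7.93, 8.87 and 8.04 and a log2 change of -0.57. For Cxcl1, Cxcl16 and Icam1 the arrays did not overlap, as for 2.14% of all genes in the lower direction. However, Tnfr1-/- replicate 2 was the highest array for all 4 genes. Without it the log2 changes were -0.66 for Ccl5, -0.32 for Cxcl1, -0.49 for Cxcl16 and -0.28 for Icam1. In the same order the log2 changes were -1.53, -1.16, -0.83 and -0.87 in array set 1 alone and -0.00, -0.24, -0.41 and -0.25 in array set 2 alone, where one genotype has a single array in each set. Clec4e, a C-type lectin receptor of myeloid cells, had levels of 4.03, 4.42 and 4.37 against 5.06, 5.17 and 4.91, close to the dim end of the scale in both mutants, and a log2 change of -0.77. Where TNF receptor 1 was present, Clec4e had levels of 7.73, 8.97 and 7.8 in Tnfr2-/- and 9.24, 10.13 and 9.59 in wildtype glomeruli. Those arrays did not overlap, as for 2.62% of all genes in the lower direction. The log2 change there was -1.49 (unadjusted p = 0.000578 in limma), and it was not called.

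**Figure D3:**
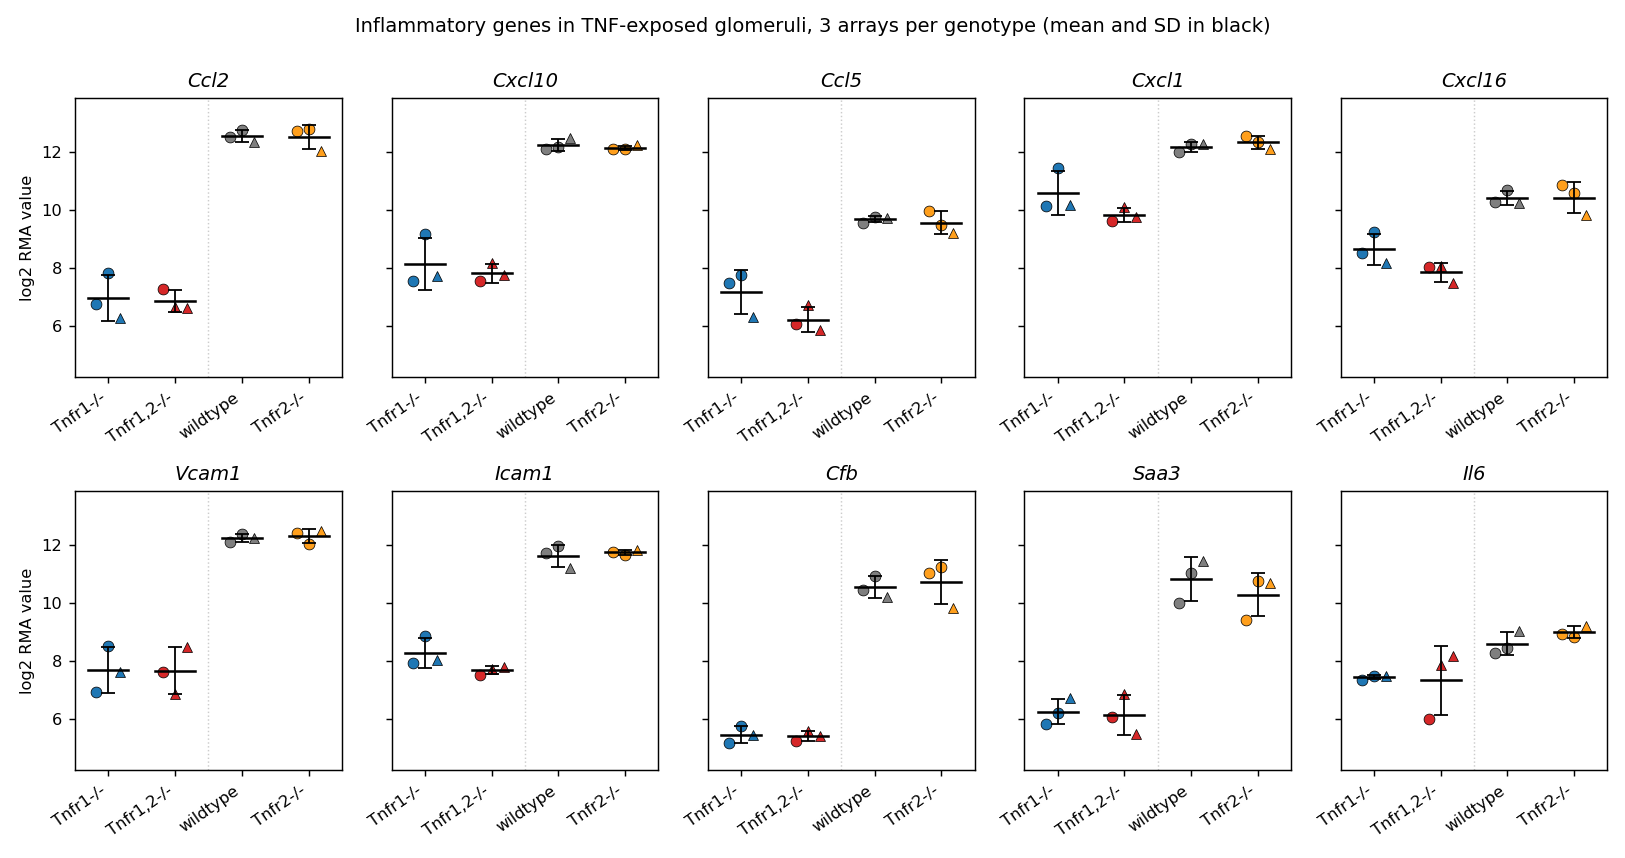
Log2 RMA values (y axis, shared by the panels) of 10 inflammatory genes on each array of the 4 genotypes (x axis). Set 1 arrays are drawn as circles and those of set 2 as triangles, with the mean and SD of 3 arrays in black. The Tnfr1-/- and Tnfr1,2-/- arrays sit below the wildtype and Tnfr2-/- arrays in every panel. For Ccl2 the log2 levels are 6.3 to 7.84 in the former and 12.04 to 12.77 in the latter. For Il6 the gap is small, with 8.19 on the highest Tnfr1,2-/- array and 8.29 on the lowest wildtype array.

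By list, no chemokine, adhesion or cytokine gene was called between the 2 mutants. Set against the same wildtype arrays, 11 of 30 chemokine ligands were called lower in Tnfr1,2-/- glomeruli (beside 0.879% of all genes) and 11 in Tnfr1-/- glomeruli (beside 0.72%). Of 30 measured chemokine ligands, 4 were lower and none higher at an unadjusted p under 0.05 (beside 1.11% lower and 1.48% higher of all genes), and the median log2 change was -0.11. Without Tnfr1-/- replicate 2 none was left at that p, and the median was -0.03. Of 20 adhesion molecules 1, Icam1, was lower at that p, and the median was -0.21, or -0.13 without that array. Among 25 cytokines and growth factors the median was -0.07, and Il1b (log2 change 0.45) and Tgfb2 (0.69) were higher at that p. Of 14 acute phase proteins none reached that p, and the median was 0.01. Haptoglobin, encoded by Hp, had a log2 change of 0.16. Of 15 complement factors none reached it, with a median of -0.13, or -0.07 without that array. The complement inhibitor gene Cd55 had a log2 change of 1.56, with 5.56 on Tnfr1-/- replicate 2 against 8.43 to 9.79 on the other 5 arrays, and of 0.42 without that array.

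Genes of the signalling routes below the receptors were called in neither direction. Of 10 canonical NF-kB subunits and inhibitors, 6 were lower in the mean (beside 49.2% of all genes), 1 at an unadjusted p under 0.05, and the median log2 change was -0.22, or -0.05 without Tnfr1-/- replicate 2. Nfkbia, which encodes the inhibitor IkB-alpha, was bright on all arrays and had a log2 change of -0.10 (95% confidence interval -0.42 to 0.21), and Nfkbid, which encodes the nuclear inhibitor IkB-NS, had one of -0.90 (-0.58 without that array). Among 20 genes of proximal TNF receptor 1 signalling the median was -0.05, and Tnfaip3, which encodes the NF-kB inhibitor A20, had a log2 change of -0.63 (levels of 9.96, 9.22 and 9.42 against 9.79, 10.69 and 10.01) and -0.37 without that array. Of 11 genes of TNF receptor 2 and alternative NF-kB signalling 9 were lower in the mean, none at that p, with a median of -0.23, or -0.14 without that array. In that list Relb had levels of 10.1, 9.16 and 8.24 against 9.81, 10.65 and 9.39 and a log2 change of -0.78, or -0.43 without that array, and Birc3, which encodes cIAP2, had one of -0.20, or 0.05 without it. The Relb level was lowest on the arrays of set 2 in both genotypes, and with the array set as a block the change was -0.49.

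Antigen presentation and interferon-induced genes had lower means in Tnfr1,2-/- glomeruli, and the difference was smaller without Tnfr1-/- replicate 2. Of 16 genes of MHC class I presentation and the immunoproteasome, 14 were lower (beside 49.2% of all genes), with a median log2 change of -0.36. At an unadjusted p under 0.05, 2 were lower (beside 1.11% of all genes). The median was -0.13 without Tnfr1-/- replicate 2, -0.38 in array set 1 alone and -0.05 in array set 2 alone. H2-D1, a classical class I heavy chain, had levels of 12.59, 12.15 and 11.55 against 13.01, 13.47 and 12.14 and a log2 change of -0.78, and H2-K1 had one of -0.69, and without that array they were -0.48 and -0.36. Class I genes share much of their sequence, so their probe sets may read each other's transcripts. B2m, the light chain of class I molecules, had a log2 change of -0.42, or -0.13 without it. Against wildtype arrays, 7 genes of this list were called lower in Tnfr1,2-/- (beside 0.879% of all genes) and 5 in Tnfr1-/- glomeruli (beside 0.72%). Of 23 interferon-induced genes 18 were lower (beside 49.2% of all genes), none at that p, with a median of -0.19, which became 0.03 without Tnfr1-/- replicate 2. Gbp2, a guanylate-binding protein, had a log2 change of -0.01, or 0.20 without that array. Gbp6 had levels of 5.53, 5.33 and 5.77 against 5.4, 7.98 and 6.1 and a log2 change of -0.95. That change was -0.20 without Tnfr1-/- replicate 2, and -0.54 in array set 2 alone, which does not hold that array.

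Matrix metalloproteinases and their inhibitors showed the same array in the other direction. Their median log2 change over 14 genes was 0.11, or 0.06 without Tnfr1-/- replicate 2, with none at an unadjusted p under 0.05. Mmp10, a stromelysin, had levels of 11.29, 11.32 and 11.52 in Tnfr1,2-/- and 10.15, 6.53 and 11.5 in Tnfr1-/- glomeruli, a log2 change of 1.98 that was 0.55 without Tnfr1-/- replicate 2. Timp1, an inhibitor of metalloproteinases, had a level of 8.4 on that array and of 10.57 to 11.04 on the other 5, and a log2 change of 0.99, or 0.23 without it.

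Markers of the glomerular cell types did not pass the test in either direction. In RNA from whole glomeruli, fewer cells of a type and less RNA per cell cannot be told apart. All 12 measured podocyte markers were higher in the mean in Tnfr1,2-/- glomeruli (beside 9251 of all 18194 genes), none at an unadjusted p under 0.05, and the median log2 change was 0.44. Without Tnfr1-/- replicate 2 the median was -0.03, with 8 markers lower and 4 higher. Podxl, which encodes the podocyte surface sialomucin podocalyxin, had levels of 13.58, 13.76 and 13.42 against 13.57, 12.15 and 13.68, so that 5 arrays lay between 13.42 and 13.76 and 1 stood below, and its log2 change was 0.45, or -0.04 without that array. The podocyte transcription factor genes Tcf21 and Foxc2 had log2 changes of 0.86 and 0.68 with all arrays and of 0.27 and 0.26 without that array, and Synpo, which encodes the actin-binding synaptopodin, had one of 0.08 with all arrays and -0.03 without it. Markers of endothelial cells were on average highest on the same array, at a mean log2 level of 9.88 beside 9.69 and 9.1 on the other Tnfr1-/- arrays and 8.8 to 9.59 on the Tnfr1,2-/- arrays. Of 15 endothelial markers 13 were lower in Tnfr1,2-/- glomeruli (beside 49.2% of all genes), none at that p, with a median of -0.34, or -0.18 without Tnfr1-/- replicate 2. For Cdh5, which encodes VE-cadherin, levels were 9.96, 9.9 and 9.74 against 10.47, 9.98 and 10.24 (log2 change -0.36). Its arrays did not overlap, as for 2.14% of all genes in the lower direction. The arrays did overlap for Emcn (-0.03) and Ehd3 (-0.40, or -0.18 without Tnfr1-/- replicate 2).

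Of 14 mesangial and smooth muscle markers, 3 were lower and 1 higher at an unadjusted p under 0.05 (beside 1.11% and 1.48% of all genes), and the median log2 change was -0.25. Agtr1a, the angiotensin II receptor, had levels of 10.81, 11.04 and 10.93 against 11.26, 12.03 and 11.17 and a log2 change of -0.56. Acta2, smooth muscle actin, had levels of 11.69, 11.61 and 12.86 against 11.41, 10.1 and 11.49 and a log2 change of 1.05. Without Tnfr1-/- replicate 2 these were -0.29 for Agtr1a and 0.60 for Acta2. The arrays overlapped for neither gene (as for 2.14% of all genes in the lower and 2.46% in the higher direction), while Pdgfrb, a marker of mesangial cells and pericytes, had a log2 change of -0.10. Without Tnfr1-/- replicate 2 none of the 14 was at that p and the median was -0.09. Of 15 macrophage markers 14 were lower in the mean (beside 49.2% of all genes). Their median was -0.32, or -0.15 without that array, -0.79 in array set 1 alone and 0.11 in array set 2 alone. The complement subunit gene C1qa, which lies within 10 Mb of Tnfrsf1b, had levels of 7.54, 7.97 and 6.43 against 8.3, 9.45 and 7.4, and the lysozyme gene Lyz2 of 10.91, 11.47 and 10.47 against 11.36, 11.84 and 11.08, with log2 changes of -1.07 and -0.47, or -0.54 and -0.27 without that array. Macrophage markers had a mean level of 8.45 on Tnfr1-/- replicate 2 and of 7.34 to 7.86 on the other 5 arrays, and the part of this difference in the chemokine and interferon genes above was not tested. Neutrophil markers were at the dim end of the scale on all 6 arrays, with mean levels of 4.2 to 4.6 over 8 genes, and lymphocyte markers at 5.22 to 5.91. The median log2 change was -0.02 for the neutrophil and -0.12 for the 8 measured lymphocyte markers. For 15 tubular epithelial markers it was -0.07 and for 7 parietal epithelial markers 0.53, or 0.22 without Tnfr1-/- replicate 2, with none at an unadjusted p under 0.05.

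**Figure D4:**
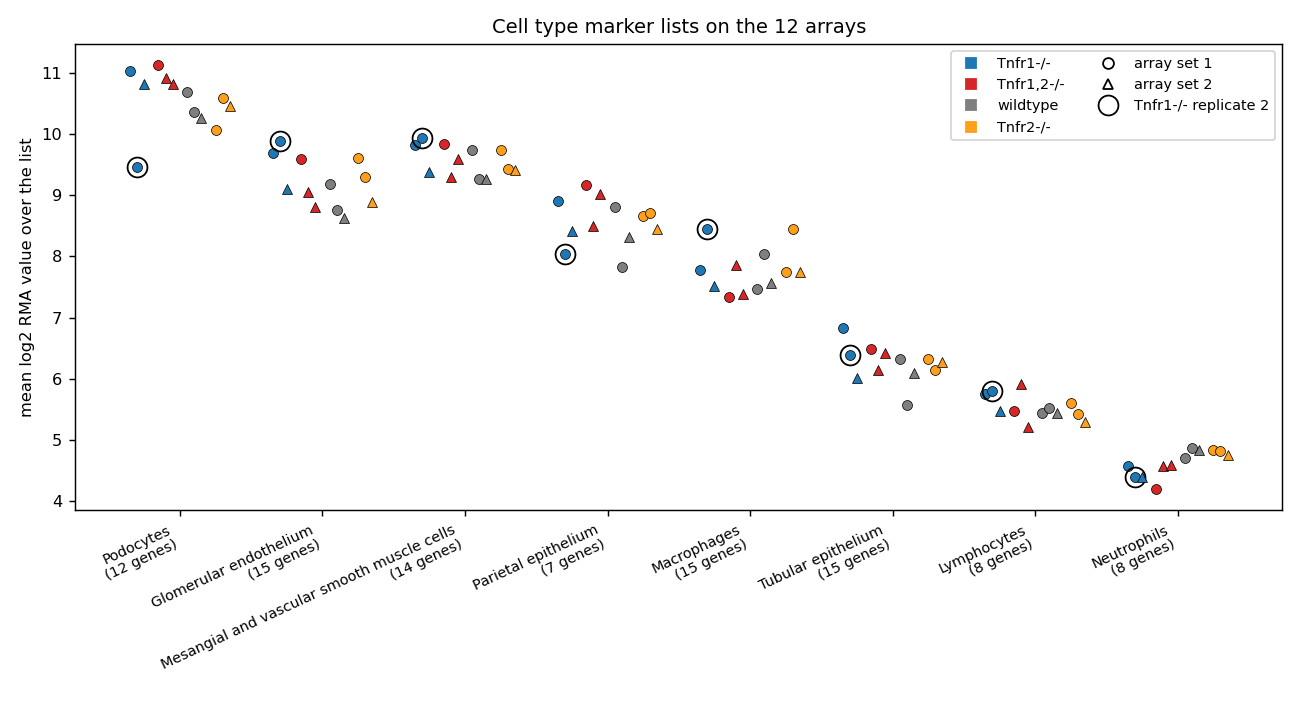
Mean log2 RMA value (y axis) over each list of cell type markers (x axis) on each of the 12 arrays; colours give the genotype, circles and triangles the array set, and a ring marks Tnfr1-/- replicate 2. The ringed array is the lowest of the 12 for podocytes (9.46) and the highest for macrophages (8.45, beside 8.44 on a Tnfr2-/- array).

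No cell cycle, stress or cell death gene was called. Of 24 cell cycle genes 19 were higher in the mean in Tnfr1,2-/- glomeruli (beside 9251 of all 18194 genes), none at an unadjusted p under 0.05. Their median log2 change was 0.18, or 0.08 without Tnfr1-/- replicate 2. Ccna2, which encodes cyclin A2, had a log2 change of 0.51. Of 19 immediate-early and heat shock genes 17 were lower (beside 49.2% of all genes), none at that p. Their median was -0.41, or -0.25 without that array and -0.24 with the array set as a block. The heat shock gene Hspa1a had levels of 11.23, 10.55 and 10.07 against 11.59, 11.64 and 11.67 and a log2 change of -1.02. Its level was lower on the 2 Tnfr1,2-/- arrays of set 2 than on the one of set 1. Among the Tnfr1-/- arrays the one of set 2 was the highest, at 11.67. With the array set as a block the Hspa1a change was -0.96. Egr1, an immediate-early transcription factor gene, had a log2 change of -0.47. Among 20 mediators of apoptosis and necroptosis none was at that p, and the median was -0.11, or 0.03 without that array. Among 17 other TNF ligands and receptors of the TNF receptor superfamily none was at that p either, with a median of -0.01, and among 23 pattern recognition receptors Clec4e alone was, with a median of -0.14.

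**Figure D5:**
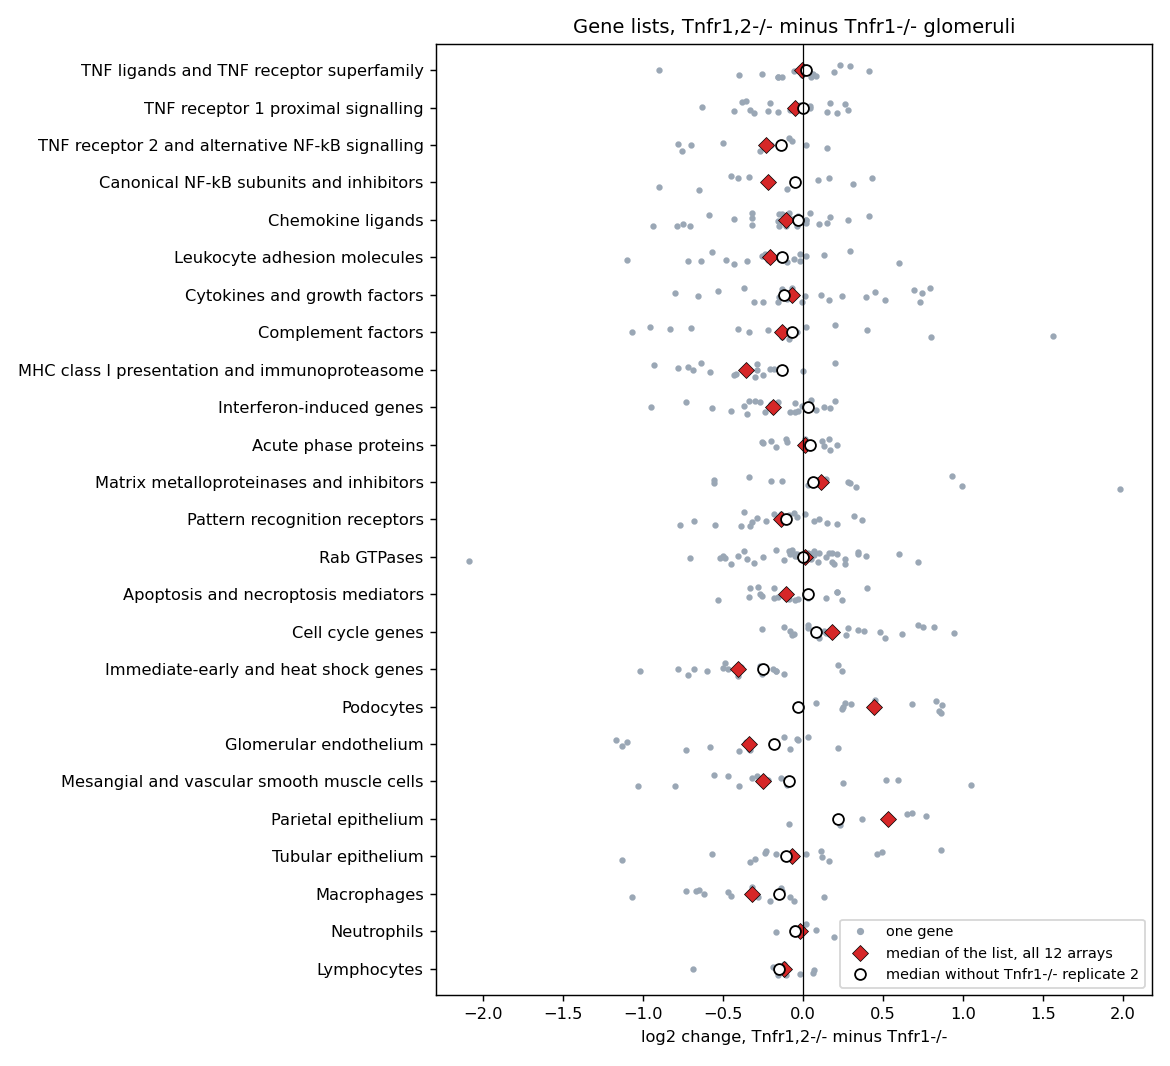
Log2 change in Tnfr1,2-/- minus Tnfr1-/- glomeruli (x axis) of each measured gene (grey points) in 25 gene lists (y axis), with the median of each list over all arrays (red diamonds) and without Tnfr1-/- replicate 2 (open circles). The medians lie between -0.41 and 0.53 with all arrays; leaving out the 1 array moves the podocyte median from 0.44 to -0.03, and the point far to the left among the Rab GTPases is Rab6b at -2.09.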

How the data were processed

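Gene expression was measured on Affymetrix mouse arrays in TNF-exposed glomeruli, with 3 arrays for each of 4 genotypes. The authors scanned the arrays and normalized all 12 together by RMA, so the deposited values are log2 intensities of 45101 probe sets, used as they are (range 1.928 to 14.13, array medians 5.588 to 5.64). The number of arrays limits the precision. The platform annotation gave 34958 probe sets 1 gene symbol, 932 several and 9211 none. Only those with 1 symbol were kept, and where a gene had more than 1 probe set the brightest on average was taken, which left 18194 genes. Gene positions came from RefSeq annotation of GRCm38.p6 for 18033 genes and were used only to find neighbours.

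Linear models were fitted to all 12 arrays with limma 3.58.1 in R 4.3.3 (lmFit, eBayes without trend, 8 residual degrees of freedom), with Benjamini-Hochberg adjustment across the 18194 genes. SAM was coded here after its description, using all 20 permutations of the 6 arrays. The fits were tested on simulated data. Of 469 genes in 25 lists, 432 were measured. The genes named are the receptor genes, all called genes, the 8 lower and 8 higher genes described in the report, the 2 brightest members of each list and the 2 with the smallest p, 4 genes near Tnfrsf1b and 9 genes picked by name. The report gives a selection of them. Members, lists and tests were chosen with earlier results of these data known. Array sets were split at the largest gap in the beta-actin 3′ to 5′ difference. Same-numbered Tnfr2-/- and wildtype arrays deviated together (correlations of 0.555, 0.208 and 0.727). Tnfr1,2-/- and Tnfr1-/- arrays did not for every number (0.424, -0.229 and 0.612). Arrays of different number could also deviate together, as Tnfr2-/- replicate 2 did with wildtype replicate 1 (0.221). The replicate block was fitted to all 12 arrays at once, and the labels do not say whether same-numbered arrays form pairs.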

Additional observations from a re-analysis of the deposited data

How the results depend on the processing

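Rab6b was the only gene called between Tnfr1,2-/- and Tnfr1-/- glomeruli, and 1 gene remained called, again Rab6b, with arrays centred on their medians, cyclic loess, no fold threshold, a 2-fold threshold, every probe set, and without probe sets marked for several transcripts. The count was 0 where a gene's probe sets were averaged, where the compared arrays were fitted alone and within array set 1 or array set 2, a split of the fit added after the data were seen. It was 3 with a mean-variance trend or without dim genes, and 4 with array weights, the array set as a block, the replicate block or SAM; it lay between 1 and 2 where each array was left out. Rab6b had a log2 change of -1.76 (adjusted p = 0.066) with averaged probe sets, -2.09 (0.1) with the compared arrays alone, and -2.29 and -1.85 within array sets 1 and 2 (0.46 and 1). Tnfrsf1b was called with array weights (-2.05). Between Tnfr2-/- and wildtype glomeruli 3 genes were called with array weights or the array set as a block and 1 with the replicate block, and 0 to 2 without each array, 2 of them without Tnfr1-/- replicate 2. The interaction gave 0 calls under each alternative that was run; it could not be computed from the compared arrays alone. The causes were not tested.

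The following log2 changes, none of them called, turned sign between Tnfr1,2-/- and Tnfr1-/- glomeruli. Without probe sets marked for several transcripts they were -0.2 for Mtcp1 and 0.08 for Birc3, and with averaged probe sets -0.02 for Synpo. With the array set as a block they were 0.12 for Ccl2 and 0.09 for Cfb. With array weights they were 0.12 for Cxcl10, 0.19 for Cfb, 0.54 for Saa3, 0.3 for Il6, 0.07 for Nfkbia, 0.01 for Birc3, 0.46 for Gbp2, 0.01 for Pdgfrb and 0.07 for Emcn. Within array set 1 Saa3 was at 0.05. Within array set 2 they were 0.35 for Ccl2, 0.25 for Cxcl10, 0.07 for Vcam1, 0.05 for Cfb, 0.55 for Il6, 0.04 for B2m, 0.06 for Gbp2, -0.08 for Mmp10, -0.08 for Podxl, 0.13 for Emcn, 0.04 for Ehd3 and -0.01 for Hp. Where each array was left out in turn, the range was -0.44 to 0.33 for Ccl2, -0.61 to 0.19 for Cxcl10, -0.43 to 0.39 for Vcam1, -0.18 to 0.1 for Cfb, -0.48 to 0.22 for Saa3, -0.52 to 0.58 for Il6, -0.49 to 0.05 for Birc3, -0.39 to 0.38 for Gbp2, -0.04 to 0.72 for Podxl, -0.05 to 0.24 for Synpo, -0.29 to 0.1 for Pdgfrb and -0.15 to 0.12 for Emcn.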

Other observations

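Nnt, which encodes the mitochondrial nicotinamide nucleotide transhydrogenase, differed between the lines, and it was singled out after its values were seen. A deletion in Nnt is known in the C57BL/6J strain. Its log2 level was 9.08, 8.92 and 9.65 in Tnfr1,2-/- and 9.75, 9.67 and 9.92 in Tnfr1-/- glomeruli, against 8.47, 8.27 and 8.47 in wildtype and 8.54, 8.24 and 8.44 in Tnfr2-/- glomeruli. The log2 change between Tnfr1,2-/- and Tnfr1-/- glomeruli was -0.56 (adjusted p = 0.919 in limma).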
